A study of Oryza longistaminata with 9 samples.

Results

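The cellulose synthase CESA subunits of Oryza longistaminata were examined in anthers at 2 stages of development. Members were the gene models that the deposited table names CESA, with the entries for CESA2, CESA4 and CESA9 added by identifier, and the rule found 5 of the 46327 gene models: CESA1, CESA2, CESA4, CESA5 and CESA9. The table describes all 5 as cellulose synthase A catalytic subunits, 3 of them (CESA1, CESA2 and CESA5) with the word probable. The plant is an African wild rice, and the labels name anther tissue and no treatment. Samples were taken from 4-mm spikelets (Ls-4mm, stage 4, primary sporogenous cells) and from 6-mm spikelets (Ls-6mm, stage 6, microspore mother cells), with 3 RNA-seq libraries per stage. Whole anthers hold germ cells and the somatic layers around them together, and the study places the tapetum after the 4-mm stage. The gene identifiers are those of Oryza sativa subsp. indica models, whereas the study's methods point to Oryza longistaminata DNA from Ensembl as the reference, and which of them the counts rest on could not be settled. The Ls-8.5mm samples were not analysed here. Total counts were 14509449 to 16684146 per Ls-4mm library and 17076800 to 21232663 per Ls-6mm library, of which the 5 genes took 0.0958% to 0.0993% at the younger stage and 0.234% to 0.239% at the older one.

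Cellulose is made at the plasma membrane by a complex whose catalytic subunits are CESA proteins, which take UDP-glucose and extend glucan chains that crystallise into microfibrils. Different subunits build different walls. In rice, CESA4, CESA7 and CESA9 form the complex of the secondary wall, the thick layer that strengthens cells after growth ends, and mutants in them have brittle culms. CESA1 belongs to the complexes of the primary wall of growing cells, and CESA2 and CESA5 are grouped with it, largely from sequence and expression. In anthers, growing wall layers and the endothecium, whose cells later lay down thickened bars, both need cellulose.

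The 5 genes are spread over 4 chromosomes and have similar coding lengths. As the table lists them, CESA1 (BGIOSGA018714) lies on chromosome 5 from 4770010 to 4775456 on the minus strand, CESA2 (BGIOSGA009600) on chromosome 3 from 38147686 to 38152874 on the minus strand, and CESA5 (BGIOSGA013897) on chromosome 3 from 39539680 to 39544445 on the plus strand. CESA4 (BGIOSGA004463) lies on chromosome 1 from 34611641 to 34616863 and CESA9 (BGIOSGA030777) on chromosome 9 from 13793835 to 13797916, both on the plus strand. These positions and lengths go with identifiers of Oryza sativa subsp. indica, so they may be those of another species' gene models, and the conflict with the reference named in the methods leaves their assembly unsettled. Coding lengths were 2970 bases for CESA4, 3168 for CESA9, 3222 for CESA2, 3231 for CESA1 and 3279 for CESA5. The sequence that is left between start and end of each gene model beyond the coding length was 914 bases in CESA9, 1487 in CESA5, 1967 in CESA2, 2216 in CESA1 and 2253 in CESA4. None of the 5 overlapped another gene model, with 0 overlaps found. The methods speak of uniquely aligned reads, and whether reads matching several subunits were left out of the counts is not spelled out, so counts of close relatives carry that uncertainty.

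Between 4-mm and 6-mm spikelets, transcripts of both secondary wall subunits rose far more than those of the primary wall subunits, and CESA2 alone among the 5 fell. CESA9 was 52.6-fold and CESA4 12.5-fold higher in Ls-6mm, CESA5 and CESA1 were 2.91-fold and 2.79-fold higher, and CESA2 was 1.34-fold lower. A gene was called at an adjusted p under 0.05 from edgeR's quasi-likelihood test over 23691 genes, and all 5 members passed the filter on low counts, each reaching its level in the Ls-4mm libraries too. By this rule 4 of 5 members were higher, against 42.0% of all genes tested, and 1 of 5 was lower, against 38.6%. Since 80.6% of all tested genes were called in either direction, the size of each change carries more than the call. In all 5 genes the libraries of the stages did not overlap in FPKM, which held in the rising direction for 41.2% and in the falling direction for 40.7% of tested genes. As these are bulk anthers, fewer cells of a type and less RNA per cell cannot be told apart. Since no source says that the libraries came from separate plants, p-values cover library-to-library spread, which may be technical.

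**Figure D1:**
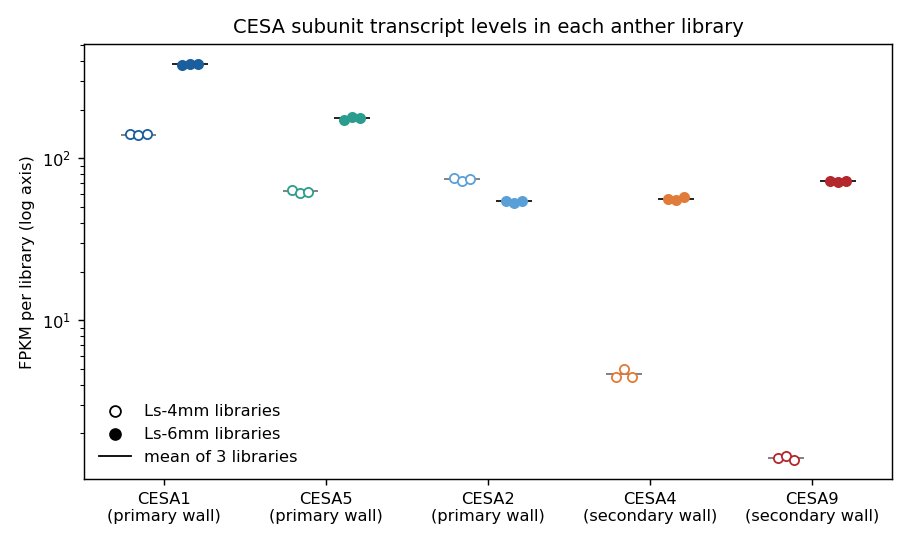
FPKM (fragments scaled by coding length and library size) of each CESA subunit, on a log axis, in 3 Ls-4mm libraries (open points) and 3 Ls-6mm libraries (filled points), with a line at each mean. CESA9 moves from about 1.41 to 72.3 and CESA4 from 4.64 to 56.3, while CESA2 falls from 74.4 to 54.2.

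Levels below are FPKM, which the authors scaled by coding length, so that subunits can be set beside each other. CESA1, the most abundant of the 5 at both stages, had 142, 139 and 141 FPKM at 4 mm and 376, 384 and 384 FPKM at 6 mm. Each Ls-6mm library lay far above each Ls-4mm library, and libraries within a stage were within a few FPKM of their mean. The mean rose from 141 ± 1.96 to 381 ± 4.69 FPKM (SD, n = 3), with a log2 fold change of 1.48 (SE 0.03, edgeR adjusted p = 7.59e-17). In rank by mean FPKM over the table, CESA1 moved from place 1098 to place 368.

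CESA5 behaved like CESA1 at less than its level. It had 64.0, 61.4 and 62.4 FPKM in Ls-4mm and 173, 180 and 178 FPKM in Ls-6mm, with no overlap. The mean went from 62.6 ± 1.29 to 177 ± 3.63 FPKM (SD, n = 3), and its log2 fold change of 1.54 (SE 0.03, edgeR adjusted p = 1.54e-16) was close to that of CESA1.

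CESA2 was the exception among the subunits grouped with the primary wall. It had 75.9, 72.7 and 74.8 FPKM in Ls-4mm and 54.7, 53.4 and 54.5 FPKM in Ls-6mm, so every Ls-6mm library was below every Ls-4mm library. The fall, from 74.4 ± 1.62 to 54.2 ± 0.679 FPKM (SD, n = 3), was small, with a log2 fold change of −0.42 (SE 0.04, edgeR adjusted p = 9.49e-09). It did not reach 2-fold, so when a 2-fold change and an FDR no higher than 0.001 were both required, 0 members were called lower.

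CESA4, a secondary wall subunit, was low in the younger anthers. It had 4.44, 5.02 and 4.44 FPKM in Ls-4mm, from 204, 264 and 227 counts, and 55.9, 55.6 and 57.4 FPKM in Ls-6mm, from 2900, 3497 and 2896 counts. No Ls-6mm library came near the Ls-4mm range. The mean rose from 4.64 ± 0.334 to 56.3 ± 0.951 FPKM (SD, n = 3), a log2 fold change of 3.64 (SE 0.06, edgeR adjusted p = 9.31e-19).

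CESA9, the other secondary wall subunit in the set, was the lowest of the 5 in Ls-4mm and had the widest change. It had 1.41, 1.44 and 1.38 FPKM in Ls-4mm, from 69, 81 and 75 counts, and 72.8, 71.7 and 72.4 FPKM in Ls-6mm, from 4032, 4805 and 3895 counts. The libraries of a stage were nearly alike and the stages far apart. The mean rose from 1.41 ± 0.0342 to 72.3 ± 0.596 FPKM (SD, n = 3), a log2 fold change of 5.72 (SE 0.06, edgeR adjusted p = 6.19e-21). This SE is below the counting error of the 225 counts in Ls-4mm, so it overstates the precision. Of all genes tested, 4.65% had a higher log2 fold change than CESA9 and 8.13% a higher one than CESA4, whereas 18.7% lay above CESA1 and 18.1% above CESA5.

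**Figure D2:**
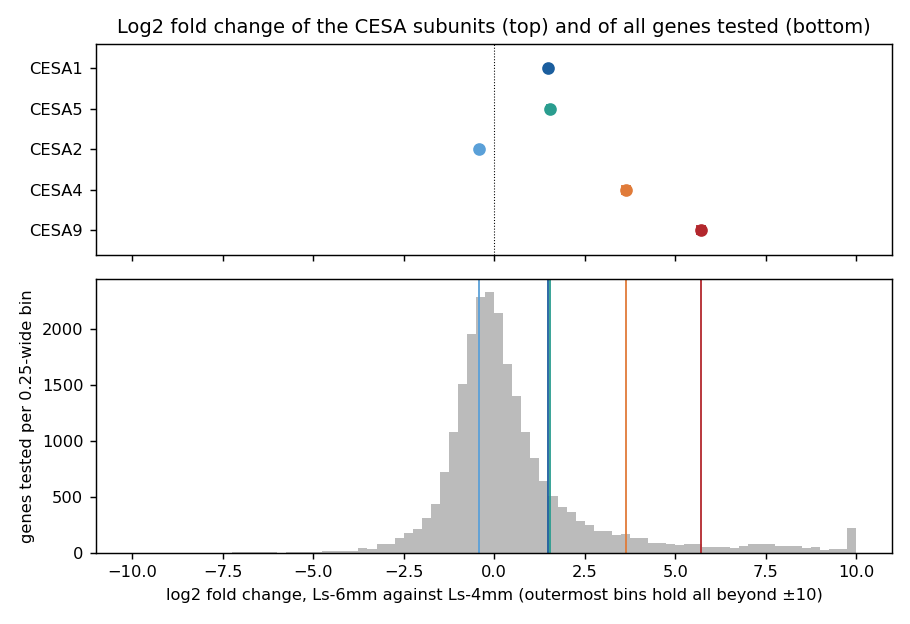
Log2 fold change of Ls-6mm against Ls-4mm for the CESA subunits (top, with 95% intervals mostly narrower than the points) and its distribution over the 23691 genes tested (bottom, coloured lines mark the subunits). CESA4 at 3.64 and CESA9 at 5.72 lie in the upper tail, CESA1 and CESA5 near 1.5, and CESA2 at −0.42. The intervals come from the F statistic, and that of CESA9 is narrower than counting error allows.

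Libraries of a stage differed little in any member. In Ls-4mm the coefficient of variation was 7.21% for CESA4, where counting error alone predicts 6.57%, and 2.42% for CESA9, below the 11.5% that counting predicts. In Ls-6mm all 5 members varied by 0.825% to 2.05%. Within Ls-4mm, replicate 2 was lowest for CESA1, CESA2 and CESA5 and highest for CESA4 and CESA9, in each case by a small margin. Leaving out each library in turn kept all 5 log2 fold changes on their side of 0, with CESA9 between 5.69 and 5.74 and CESA2 between −0.44 and −0.41.

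The order of the subunits changed between the stages. In Ls-4mm the FPKM order was CESA1, CESA2, CESA5, CESA4 and CESA9, and neighbours differed by 1.89-fold, 1.19-fold, 13.5-fold and 3.29-fold with no overlap of libraries. In Ls-6mm it was CESA1, CESA5, CESA9, CESA4 and CESA2, with neighbours 2.16-fold, 2.45-fold, 1.28-fold and 1.04-fold apart. Libraries of CESA4 and CESA2 did not overlap in Ls-6mm, but without division by length their order was the reverse, as CESA2 had 9701 counts over the 3 libraries and CESA4 had 9293.

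Within the pool of these 5 genes, the make-up therefore shifted to the secondary wall subunits while the primary wall subunits stayed in the majority. CESA7, named above with CESA4 and CESA9, was not among the 5. The summed FPKM of the 5 genes was 284 ± 4.53 at 4 mm and 741 ± 7.77 at 6 mm (SD, n = 3). CESA1, CESA2 and CESA5 together went from 278 ± 4.84 to 612 ± 7.77 FPKM, a ratio of 2.21, and CESA4 and CESA9 together from 6.05 ± 0.365 to 129 ± 1.24 FPKM, a ratio of 21.3. The primary wall sum was thus 46.0 ± 3.37 times the secondary wall sum at the younger stage and 4.76 ± 0.0791 times at the older. CESA4 and CESA9 together held 2.03%, 2.32% and 2.05% of the pool at 4 mm and 17.6%, 17.1% and 17.4% at 6 mm, so the stages were far apart and the libraries of a stage close. The share of CESA1 hardly moved, from 49.6 ± 0.102% to 51.5 ± 0.105%, and that of CESA5 went from 22.1 ± 0.115% to 23.9 ± 0.280%. The share of CESA2 was much smaller at the older stage, going from 26.2 ± 0.180% to 7.31 ± 0.146% (SD, n = 3). Of the net rise of 457 FPKM in the sum, CESA1 made up 52.6%, CESA5 24.98%, CESA9 15.5% and CESA4 11.3%, and CESA2 took away 4.43%. With 3 unnumbered cellulose synthase genes, described further on, added to the pool, the direction turned for CESA1 and CESA5. CESA1 went from 34.2 ± 0.0823% to 29.1 ± 0.0345% and CESA5 from 15.2 ± 0.143% to 13.5 ± 0.117%. In this wider pool CESA2 held 4.14% in Ls-6mm and the 3 unnumbered genes 22.8%, 7.24% and 13.3%. A majority for CESA1, CESA2 and CESA5 in Ls-6mm thus holds only where those 3 genes are left out. These shares are sums over chosen members and were not tested.

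**Figure D3:**
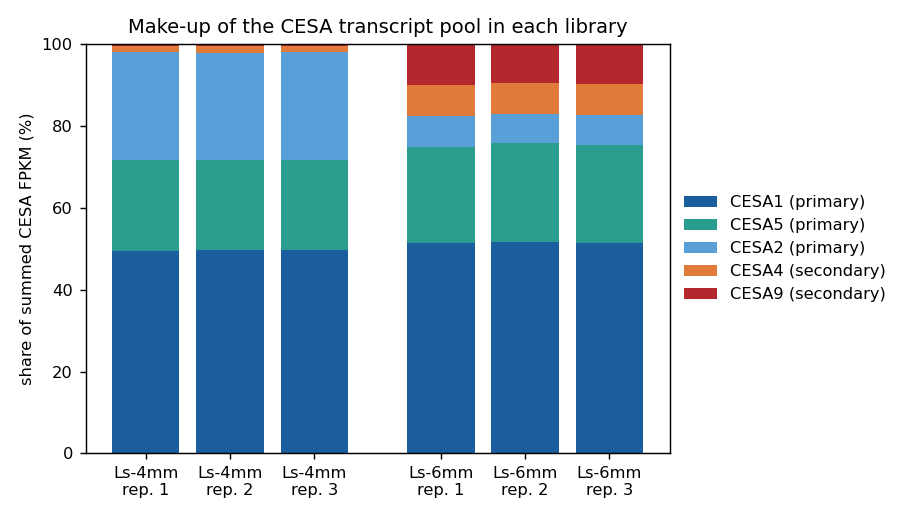
Share of each CESA subunit in the summed FPKM of the 5 genes, in percent, stacked for each of the 6 libraries. CESA4 and CESA9 grow from 2.13% to 17.4% on average, CESA2 shrinks from 26.2% to 7.31%, and CESA1 stays near 50%.

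Ratios within a library do not depend on how libraries are scaled, and they separated the subunits in the same way. The ratio of CESA1 to CESA5 was 2.23, 2.26 and 2.25 in Ls-4mm and 2.18, 2.13 and 2.16 in Ls-6mm, the smallest change of the 10 pairs (−0.06 on the log2 scale). These primary wall subunits thus kept nearly the same proportion. CESA4 exceeded CESA9 by 3.15, 3.48 and 3.23 times in Ls-4mm but was only 0.767, 0.776 and 0.793 times CESA9 in Ls-6mm, a log2 change of −2.08, so the order of the secondary wall pair reversed. CESA2 stood at 1.19, 1.18 and 1.20 times CESA5 in Ls-4mm and at 0.316, 0.297 and 0.306 times in Ls-6mm. CESA1 exceeded CESA9 by 99.7 ± 3.34 times in Ls-4mm and by 5.28 ± 0.101 times in Ls-6mm (SD, n = 3). In a two-sided exact permutation test over libraries each of the 10 pairs had p = 0.1 and an adjusted p of 0.1, the smallest value that 3 libraries against 3 allow, so no pair can pass 0.05 in this design.

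**Figure D4:**
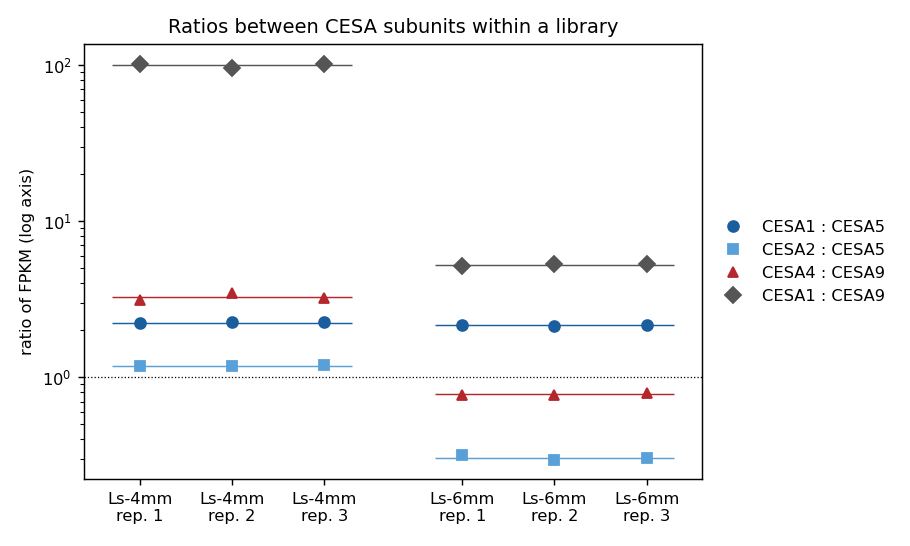
Ratio of FPKM between pairs of CESA subunits in each library, on a log axis, with a line at the mean of each stage and a dotted line at equality. CESA1 to CESA5 stays near 2.2, CESA4 to CESA9 crosses equality from 3.29 to 0.779, and CESA1 to CESA9 drops from 99.7 to 5.28.

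Outside the named subunits, 3 gene models of similar coding length are described only as cellulose synthase, without a subunit number, and no number is given to them here. The first 2 were named by a rule on abundance and BGIOSGA033103 after its values were seen. BGIOSGA024623 (chromosome 7 from 5937860 to 5942976, 3192 coding bases) had 44.1, 43.5 and 46.0 FPKM in Ls-4mm and 294, 304 and 298 FPKM in Ls-6mm, with a log2 fold change of 2.79 (SE 0.04, edgeR adjusted p = 1.67e-19). Its change lay between those of CESA1 and CESA4. BGIOSGA025466, also on chromosome 7, went from 80.3 ± 0.408 to 174 ± 4.16 FPKM (SD, n = 3), a log2 fold change of 1.15. BGIOSGA033103 on chromosome 10 had 2.31, 2.50 and 1.99 FPKM in Ls-4mm and 92.4, 94.95 and 96.9 FPKM in Ls-6mm, a log2 fold change of 5.43, so it was low in the younger anthers. It exceeded CESA9 in every library. It was 1.60 ± 0.146 times CESA9 in Ls-4mm and 1.31 ± 0.0377 times in Ls-6mm (SD, n = 3). With these 3 genes added, the summed level went from 411 ± 5.19 to 1308 ± 17.5 FPKM, and CESA4 and CESA9 together held 1.47% of it in Ls-4mm and 9.83% in Ls-6mm, as BGIOSGA033103 was counted in neither class.

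Likeness of pattern was measured as the Euclidean distance of log2(FPKM + 1) over the 6 libraries, which mostly reflects the level in each stage. Nearest to CESA1 among genes with a described product were a PsbP protein (BGIOSGA024841), PsbR (BGIOSGA027483) and PsbW (BGIOSGA000728), which are photosystem II proteins, at distances of 0.16 to 0.19. Nearest to CESA9 were an EF-hand protein (BGIOSGA009751), a thaumatin family protein (BGIOSGA038810) and a MazG-like protein (BGIOSGA016159), at distances of 0.37 to 0.49. Within the family, BGIOSGA033103 was the gene nearest to CESA9 (distance 1.02, place 37 over the table), followed by CESA4 (distance 2.21, place 204), and BGIOSGA025466 was nearest to CESA5 (distance 0.62, place 50).

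The genes beside the subunits on their chromosomes varied. Of 6 tested neighbours of the 4 rising subunits, 3 were called higher, 2 lower and 1 neither, near the shares over all genes tested. A neighbour of CESA1 (BGIOSGA018713) rose by 3.85 on the log2 scale and the other (BGIOSGA019262) fell by 0.87, while BGIOSGA009490 beside CESA5 rose by 0.31. Of the neighbours of CESA9, a gene of the QWRF family (BGIOSGA029740), 1233 bases away, had a log2 fold change of 1.98, and the model on the other side had 2 counts in all. The neighbours of CESA4 had log2 fold changes of 0.04 (an undescribed model with 29 and 32 counts, edgeR adjusted p = 0.933) and −2.42 (BGIOSGA000825), against 3.64 for CESA4. BGIOSGA013788, which lies 448 bases from CESA2 on the opposite strand, rose from 1 count over the Ls-4mm libraries to 416 over the Ls-6mm libraries while CESA2 fell. Whether counting used strand is not stated, and the gene models do not overlap.

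Other genes of the cellulose synthase superfamily were few. Of 13 models besides the 5 members, 7 were tested, 4 were higher and 3 lower in Ls-6mm, against 42.0% and 38.6% of all genes tested. Their median was 1.15 on the log2 scale, against 0.04 over all genes tested, and 4 had 0 counts in all libraries. The higher ones were the 3 genes above and CSLD1 (BGIOSGA033504), a cellulose synthase-like gene. CSLD1 had 1 count over the Ls-4mm libraries and 64 over the Ls-6mm libraries, a ratio of 59.6 with a 95% counting interval from 10.3 to 2389. It passed the filter on low counts only through the Ls-6mm libraries, so its direction was fixed by the filter. The median of 1.15 includes CSLD1, and without it as many of the tested genes were higher as lower. CSLD2 (BGIOSGA027158), of the same subfamily, fell from 36.3 ± 0.699 to 25.1 ± 0.351 FPKM (SD, n = 3), a log2 fold change of −0.49, and was the most abundant of the lower ones. Named after their values were seen, CSLC10 (BGIOSGA024895), described as a putative xyloglucan glycosyltransferase, fell by 1.33 on the log2 scale, and a model of 645 coding bases (BGIOSGA029585) fell by 1.15.

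COBRA-like proteins, which are anchored at the cell surface and take part in the assembly of cellulose, had 3 models in the table. Of these, 2 were tested and called higher, against 42.0% of all genes tested. Both passed the filter on low counts only through the Ls-6mm libraries, so their direction was fixed by it and only their sizes are informative. BC1 (BGIOSGA012871, COBRA-like protein 5, chromosome 3 from 19273605 to 19275208), known in rice from a brittle culm mutant, had 0.138, 0.241 and 0.207 FPKM in Ls-4mm and 40.2, 41.0 and 39.5 FPKM in Ls-6mm. It was close to absent in each Ls-4mm library, with 14 counts over them against 3155 in Ls-6mm. Its log2 fold change was 7.67 (edgeR adjusted p = 4.34e-18). No SE is given, as the one from the F statistic was below the counting error of 14 counts. The other gene, BGIOSGA016848, had a log2 fold change of 2.68 at 0.512 ± 0.249 and 3.21 ± 0.422 FPKM (SD, n = 3).

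Endo-1,4-beta-glucanases, of which membrane-bound forms are needed for cellulose synthesis and secreted forms loosen walls, had 32 models in the table. Of the 21 tested, 12 were higher, 7 lower and 2 not called, against 42.0% higher and 38.6% lower over all genes tested, and 6 of the 12 passed the filter only through Ls-6mm. The median was 2.53 on the log2 scale, but it includes those 6, whose direction the filter fixed. Among the 15 genes that reached the filter in Ls-4mm, fewer were called higher than lower, so the median shows no rise across the family. The most abundant, BGIOSGA009850, rose from 98.0 ± 1.93 to 566 ± 16.1 FPKM (SD, n = 3), a log2 fold change of 2.57. The next, BGIOSGA021512, went the other way, from 226 ± 16.9 to 19.5 ± 2.13 FPKM, a log2 fold change of −3.50. BGIOSGA002117 had 0 counts in Ls-4mm and 181 over the Ls-6mm libraries, at least 56.2-fold higher against a floor of 3 counts over the Ls-4mm libraries, which is 0.0605 CPM and covers counting error only.

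Sucrose synthases, which release UDP-glucose and so can supply the substrate of the CESA proteins, had small changes in their abundant members. Of 6 in the table, 5 were tested, 3 were higher, 1 lower and 1 not called, against 42.0% higher and 38.6% lower over all genes tested. The median was 0.25 on the log2 scale, against 0.04 over all genes tested. The most abundant, BGIOSGA010570, went from 865 ± 7.46 to 1003 ± 7.03 FPKM (SD, n = 3), a log2 fold change of 0.25, and BGIOSGA021739 from 253 ± 2.87 to 207 ± 1.31 FPKM, a log2 fold change of −0.25. The largest change was in BGIOSGA026140, which rose by 4.09 on the log2 scale but reached only 7.45 ± 0.271 FPKM.

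Fasciclin-like arabinogalactan proteins are cell surface proteins, some of which are linked to secondary walls. Of the 18 listed, 16 were tested, 14 were higher and 2 lower, against 42.0% and 38.6% of all genes tested, and 2 of the 14 passed the filter only through Ls-6mm. Their median was 1.92 on the log2 scale. BGIOSGA027198 rose from 184 ± 10.97 to 662 ± 12.3 FPKM and BGIOSGA001054 from 131 ± 14.1 to 841 ± 13.0 FPKM (SD, n = 3), with log2 fold changes of 1.89 and 2.72. BGIOSGA018754, 1 of the 2 whose direction the filter fixed, had 0 counts in Ls-4mm and 2657 over the Ls-6mm libraries. It was at least 824-fold higher against a floor of 3 counts over the Ls-4mm libraries. Laccases oxidise monolignols on the way to lignin, and 3 of 10 were tested. These 3 were called higher, against 42.0% of all genes tested, but 2 of them passed the filter only through Ls-6mm, which fixed their direction. The most abundant was BGIOSGA000508, which rose from 0.797 ± 0.355 to 32.0 ± 1.33 FPKM, followed by BGIOSGA000512, which rose by 4.86 on the log2 scale. The third called one was BGIOSGA004808, with 14 and 59 counts, and the other 7 held between 0 and 3 counts per stage.

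**Figure D5:**
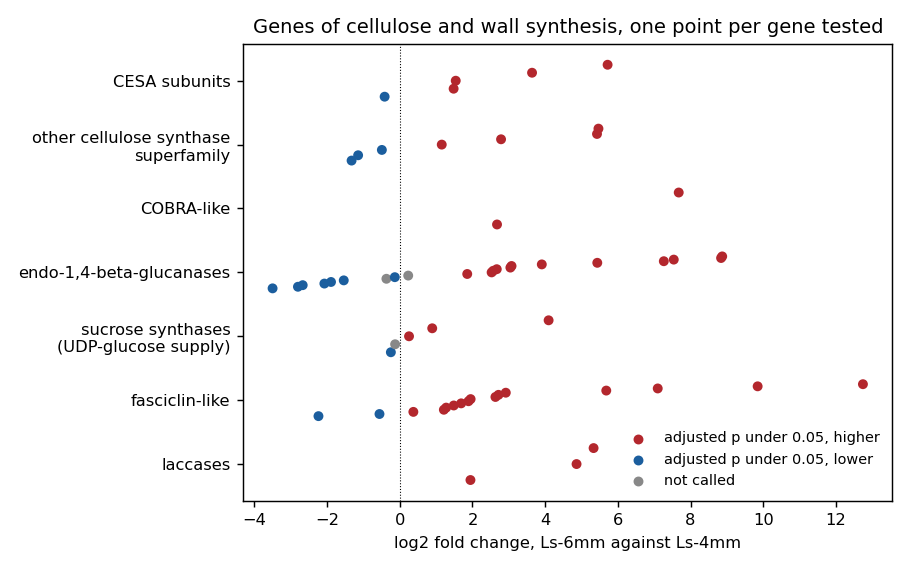
Log2 fold change of Ls-6mm against Ls-4mm, 1 point per gene tested, for the CESA subunits and 6 lists of wall genes, in red or blue where the adjusted p was under 0.05 and in grey otherwise. Points of genes with 0 counts in Ls-4mm are fitted values that depend on the prior count, and CESA4, CESA9, BC1 and the laccases lie to the right while endoglucanases lie on both sides.

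Other cell contents moved between the stages as well. Of 23 chlorophyll a-b binding protein genes, which mark green tissue, 22 were tested. Of those, 18 were higher and 3 lower, against 42.0% and 38.6% of all genes tested. Of the 22, 2 passed the filter only through Ls-6mm, 1 of them called higher, and 1 passed only through Ls-4mm. The summed FPKM of the 23 was 2144 to 2465 at the younger stage against 4721 to 4878 at the older, and 0 of them lacked counts in every library. The 6 genes matched as MCM2, MCM3, MCM5, MCM6, MCM7 and PCNA, which mark dividing cells, were all lower, against 38.6% of all genes tested. Together these 6 had a summed FPKM of 621 to 626 at the younger stage against 95.6 to 101 at the older. Their part in the changes of the CESA subunits was not tested. Of 20 markers chosen for stamen identity, tapetum and meiosis, 2 models were matched by description, both with a domain of the Rad21 and Rec8 type. Their summed FPKM was 11.2 to 11.3 against 1.60 to 2.53, but 1 of them passed the filter only through Ls-4mm, which fixed its direction. They lie close together on chromosome 8, from 11306897 to 11309455 and from 11309687 to 11311697, and whether they are parts of 1 gene was not tested. The table thus offered no broader check of the labelled tissue by these names.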

How the data were processed

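The labels name anther tissue, and the paper's results describe RNA from isolated anthers, while its RNA methods speak of pollen. By those methods mRNA was enriched with oligo(dT) beads and sequenced on an Illumina platform, and cleaned paired-end reads were aligned with HISAT2 2.0.5. The submitters' processing notes also name featureCounts 1.5.0-p3. The counts deposited by the authors are raw whole numbers per gene. The deposited FPKM divide each count by coding length and a scaled library size, which was 1.06 to 1.07 times the total at the younger stage and 0.993 to 0.997 times at the older. The methods point to Oryza longistaminata DNA from Ensembl as the reference, whereas the identifiers are those of Oryza sativa subsp. indica, so the build is unsettled. The strand setting is not stated. No reference sequence was used here, and 36 further columns of values per sample, including those not matched to Ls-8.5mm titles, were not used.

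Raw counts entered edgeR 4.0.16 under R 4.3.3: filterByExpr (minimum count 10, minimum total count 15), TMM scaling, stage as the only term, and Benjamini-Hochberg adjustment over all 23691 genes tested. The standard error is the size of the log2 fold change divided by the square root of the F statistic. For large changes that rest on few counts it can fall below counting error alone, as for CESA9 and BC1. For CESA4 it is no larger than counting error. Members and lists were chosen with earlier results of these data known. Lists were words matched to names and descriptions. The words for xylan synthesis matched 82 models, all 82 with xylanase inhibitor domains, and those for monolignol enzymes matched 0, so neither is reported. Named genes were all members, per list the 2 with the highest mean CPM and the called gene with the largest change, and the 3 nearest in pattern to CESA1 and CESA9. Alternatives were DESeq2 1.42.0, limma 3.58.1 on log2(FPKM + 1) or log2(FPKM + 0.1), other scalings and filters, a stricter threshold, a replicate block and left-out libraries. The fit was tested on simulated data. Libraries of a stage differed by more than read sampling (chi-square per degree of freedom 2.06 to 3.49), so none were copies.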

Additional observations from a re-analysis of the deposited data

How the results depend on the processing

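The calls of the 5 CESA subunits (4 higher, 1 lower) did not change under DESeq2, RLE size factors, scaling by library size alone, a filter of at least 10 counts in each library or none, limma on log2(FPKM + 1) or log2(FPKM + 0.1), or any left-out library. Requiring both a 2-fold change and an FDR no higher than 0.001 left 0 members called lower in place of 1. Over the settings that refit each gene, log2 fold changes ran from 1.34 to 1.54 for CESA1, −0.55 to −0.36 for CESA2, 3.35 to 3.70 for CESA4, 1.40 to 1.60 for CESA5 and 4.93 to 5.78 for CESA9. Library size as the only scaling moved the median of all genes by −0.14, and with it CESA2 was at −0.55. With it, 1 endoglucanase (BGIOSGA007420) and 1 sucrose synthase (BGIOSGA010770) also became lower, and 1 chlorophyll a-b binding gene (BGIOSGA026928, edgeR adjusted p = 0.277) was no longer called higher. The share of CESA4 and CESA9 in the summed FPKM, 2.13% in Ls-4mm and 17.4% in Ls-6mm, was 16.6% in Ls-6mm from CPM, 1.64% and 8.42% without CESA9, and 4.23% and 35.8% without CESA1. It was 1.47% and 9.83% with the 3 unnumbered genes in the sum, a choice made after the data were seen, and 2.04% to 2.18% and 17.2% to 17.5% with each library left out. With the replicate number as a block, log2 fold changes were 1.48, −0.42, 3.64, 1.54 and 5.72 for CESA1, CESA2, CESA4, CESA5 and CESA9, and no call changed. Deviations of same-numbered libraries had r of −0.04, −0.03 and −0.01, so no pairing by number was seen. Values of r near 0 cannot exclude shared plants or batches. In Ls-4mm CESA9 rests on 225 counts over 3 libraries, which limits the precision of its fold change.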
